A study of Homo sapiens with 24 samples.

Results

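The core histones H2A, H2B, H3 and H4 form the protein spool on which DNA is wound, and a dividing cell has to double them while it copies its genome. This is done by a large set of replication-dependent genes, which were chosen here by name: every gene whose current symbol is H2AC, H2BC, H3C or H4C followed by a number, most of them known earlier under HIST1, HIST2, HIST3 or HIST4 names. The linker histone H1 genes were not members. Array probes were tied to these genes through their RefSeq accession. The annotation (RefSeq, GRCh38.p14) held 63 such genes. Of these, 60 had a probe on the array used at 24 h and 59 on the array used at 48 h, and all of those were bright enough to be tested, among 36639 genes tested at 24 h and 37670 at 48 h. H2AC18, H3C14 and H4C14 had no probe of their own on either array, and H2BC18 had none at 48 h. At 24 h the members comprised 16 H2A, 18 H2B, 12 H3 and 14 H4 genes, of which 49 lie in the HIST1 cluster on chromosome 6, 8 in HIST2 and 2 in HIST3 on chromosome 1, and 1, H4C16, in HIST4 on chromosome 12.

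The cells were LNCaP, an established line of prostate cancer cells. They were electroporated with a Stealth siRNA duplex against the long non-coding RNA TAPIR-1 (si-A1), with one against its neighbour TAPIR-2 (si-A2), or with a scrambled duplex (si-SCRL), and RNA was taken after 24 h or 48 h from 4 biological replicates per siRNA and time. On these arrays each target was represented by a single siRNA, and the control cells had been electroporated as well. Each of the 24 RNAs was hybridised to its own 1-colour Agilent array, of design v2 at 24 h and v3 at 48 h. Replicate 2 of si-A2 at 48 h was a dim array, with a median intensity of 13.9 against 20.4 to 32.2 on the other 11 arrays of that time, and was left out. The study's methods left it out as well.

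Replication-dependent histone mRNAs are made in S phase, when the factor NPAT switches on the clusters, and they are degraded when DNA synthesis stops. They usually end in a stem-loop in place of a poly(A) tail. The stem-loop binding protein SLBP holds this end, and the U7 snRNP, which contains LSM10 and LSM11, cuts it. The labelling kits named for these arrays copy RNA from its poly(A) tail as supplied, and the sources used here do not say that this step was replaced. Differences of a histone probe are therefore taken between arrays, and brightness served only to choose the probe of a gene and some of the genes described, not as a measure of how abundant one gene was beside another.

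Because H2A and H2B genes often stand head to head and share the DNA between their start sites, and because H3 and H4 genes have promoters of their own, a few of these stretches are shown before the values. Each is given 5′ to 3′ from RefSeq on GRCh38.p14, with capitals on the letters CCAAT (the CCAAT box), ATTTGCAT (the octamer bound by OCT-1), TATAAA (the TATA box) and GGTCC (a short element of H4 promoters), read on either strand. H2BC11 to H2AC11 (chr6:27132796-27133042, plus strand, 247 bases) is a pair in which both genes fell after each siRNA at 24 h. H2AC15 to H2BC15 (chr6:27838376-27838568, plus strand, 193 bases) and H2AC25 to H2BC26 (chr1:228457874-228458102, plus strand, 229 bases) are pairs of which 1 gene was called lower at 24 h and the other was not, for the former after each siRNA and for the latter after si-A2. H3C15 (chr1:149852458-149852607, plus strand) and H3C3 (chr6:26045234-26045383, plus strand) had the largest and the smallest decrease of the H3 class at 24 h, H4C15 (chr1:149861160-149861309, minus strand) had the largest decrease of the H4 class, and H4C11 (chr6:27823942-27824091, plus strand) was called in no comparison. For the H3 and H4 genes the 150 bases before the start are printed, and that of H4C15 is the start listed in RefSeq's promoter table, which lies inside the annotated span of the gene.
H2BC11 to H2AC11: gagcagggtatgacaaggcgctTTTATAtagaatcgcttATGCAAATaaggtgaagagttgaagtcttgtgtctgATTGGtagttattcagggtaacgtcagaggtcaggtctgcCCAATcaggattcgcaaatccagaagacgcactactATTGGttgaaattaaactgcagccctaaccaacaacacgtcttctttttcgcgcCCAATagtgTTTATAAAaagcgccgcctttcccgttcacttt
H2AC15 to H2BC15: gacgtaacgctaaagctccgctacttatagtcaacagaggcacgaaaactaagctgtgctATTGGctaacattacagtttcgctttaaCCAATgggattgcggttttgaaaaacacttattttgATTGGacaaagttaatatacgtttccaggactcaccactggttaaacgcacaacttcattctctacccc
H2AC25 to H2BC26: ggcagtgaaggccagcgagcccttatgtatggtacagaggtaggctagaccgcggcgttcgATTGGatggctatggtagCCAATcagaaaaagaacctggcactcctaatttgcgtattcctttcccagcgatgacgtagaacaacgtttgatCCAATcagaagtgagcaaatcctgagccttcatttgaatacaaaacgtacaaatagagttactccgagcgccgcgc
H3C15: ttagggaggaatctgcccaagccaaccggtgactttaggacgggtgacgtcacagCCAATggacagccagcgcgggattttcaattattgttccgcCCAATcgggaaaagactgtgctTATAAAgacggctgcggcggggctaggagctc
H3C3: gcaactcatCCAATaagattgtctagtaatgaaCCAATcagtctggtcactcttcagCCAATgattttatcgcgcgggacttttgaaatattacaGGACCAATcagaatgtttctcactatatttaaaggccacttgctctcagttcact
H4C15: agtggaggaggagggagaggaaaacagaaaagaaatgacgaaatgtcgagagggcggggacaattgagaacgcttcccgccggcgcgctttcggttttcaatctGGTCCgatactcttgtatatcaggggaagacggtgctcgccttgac
H4C11: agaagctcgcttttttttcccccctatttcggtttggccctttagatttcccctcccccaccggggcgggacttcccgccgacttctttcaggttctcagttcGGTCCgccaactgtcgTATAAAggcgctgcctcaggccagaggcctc
In H3C3 a GGTCC on the minus strand and a CCAAT overlap. Over the 250 bases before the start, the 62 promoters that RefSeq lists for 58 members differed by class in these letters. CCAAT was present in 16 of 16 H2A, 20 of 20 H2B and 13 of 13 H3 promoters and in 3 of 13 H4 promoters, against 32% of 35116 promoters of all genes. ATTTGCAT was present in 11 of 16 H2A and 15 of 20 H2B promoters, in 1 of 13 H3 and in 0 of 13 H4 promoters, against 1.63% of all. GGTCC was present in 12 of 13 H4 promoters, against 40.7% of all, and H4C7 was the H4 gene without it. TATAAA was present in 12 H2A, 14 H2B, 9 H3 and 7 H4 promoters, against 10.7% of all. These are letter matches, with no binding measured, and their bearing on the fold changes was not tested.

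Across the arrays used, the median intensity was 24.4 to 57.2 at 24 h and 20.4 to 32.2 at 48 h. Slide was a term of the fits below unless another setting is named, since the 12 arrays at each time were split over 2 slides that each held 2 replicates of every siRNA. The replicates are described as biological, with no word on how cultures were separated, so p-values measure the spread between these samples. On all arrays KLK3, a marker of LNCaP cells, was well above background. Among 10 markers of other cell types, the immune markers PTPRC and CD3E and the endothelial marker VWF also read well above background on all arrays, and PECAM1 on 12 of 12 at 24 h and 8 of 11 at 48 h. Of the fibroblast markers, DCN did so on 2 arrays at 24 h and 11 at 48 h, COL1A1 on 3 and 0 and COL3A1 on 1 and 0. Of the basal markers, KRT14 did so on 10 and 10, TP63 on 7 and 1 and KRT5 on 0 at both times. Their part in the histone values was not tested. The probe for TAPIR-2 measured a log2 intensity of 5.04 ± 0.20 (SD, n = 4) in si-SCRL and 4.06 ± 0.74 (n = 4) in si-A2 at 24 h, a difference that did not pass (-0.98, limma adjusted p = 0.245). At 48 h it was not lower in si-A2 (0.23, limma adjusted p = 0.707), and no probe for TAPIR-1 was identified on either array, so the knockdowns themselves could not be checked with these arrays.

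At 24 h most core histone genes were lower after either siRNA, in all 4 classes, and the H3 genes had the lowest class median. A gene was called when limma's adjusted p over all genes was below 0.01 and the log2 fold change was at least 0.5 in size. After si-A1, 41 of the 60 members were called lower and 0 higher, where 0.958% of all genes tested were called lower. After si-A2, 47 of 60 were called lower and 0 higher, against 0.827% of all genes. Fitted with only the arrays of the groups compared, 27 and 28 members were called lower. Over the members, the median log2 fold change for si-A1 was -1.46 and that for si-A2 was -1.63, and the median over all genes was 0.05 in each comparison. Both comparisons use the same 4 si-SCRL arrays, so they are not independent of each other. In RNA from whole cultures, fewer cells in S phase and less histone mRNA per cell cannot be told apart.

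The same was seen array by array. All 4 si-A1 arrays lay below all 4 si-SCRL arrays for 51 of the 60 members, where this held for 5.1% of all genes, and for si-A2 it held for 52 members and 4.16% of all genes. The median over the members, taken as the difference from the si-SCRL mean, was between -1.60 and -1.21 on the si-A1 arrays, between -1.73 and -1.42 on the si-A2 arrays and between -0.29 and 0.19 on the si-SCRL arrays. Within the first slide the median difference was -1.34 for si-A1 and -1.59 for si-A2, and within the second it was -1.53 and -1.63. For si-A1, the 9 members whose arrays overlapped with or lay above those of si-SCRL were H2AC25, H2BC1, H2BC6, H2BC12, H2BC15, H4C5, H4C7, H4C11 and H4C16.

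**Figure D1:**
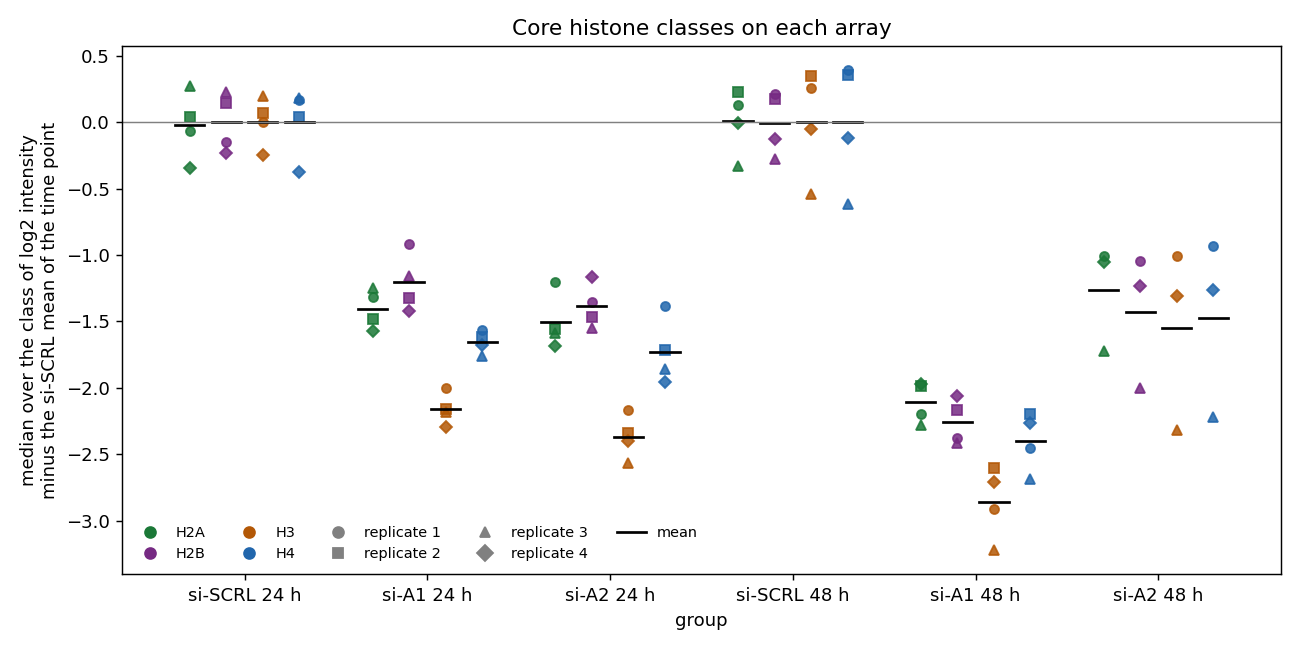
Each point is 1 array, placed at the median over the genes of a class of log2 intensity minus the si-SCRL mean of that time point (y axis, log2 units), by siRNA and time (x axis); colours are classes, shapes are replicates and bars are group means. The H3 class has the lowest mean after si-A1 and after si-A2 at 24 h. At 48 h replicate 3 is the lowest array of each group in all 4 classes.

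The class medians were ordered alike for both siRNAs at 24 h. For H2A, 11 of 16 genes fell after si-A1 (class median -1.40) and 13 after si-A2 (-1.5). For H2B, 10 of 18 fell after si-A1 (-1.19) and 14 after si-A2 (-1.40). For H3, 10 of 12 fell after each siRNA, with medians of -2.16 and -2.37, and for H4 10 of 14 fell after each, with medians of -1.63 and -1.74. On single arrays the H3 median lay between -2.29 and -2.0 for si-A1, below every H4 array (-1.76 to -1.56), every H2A array (-1.58 to -1.25) and every H2B array (-1.42 to -0.92) of that group. These are descriptions of the probes at hand, since genes of a class share sequence and were not treated as replicates.

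**Figure D2:**
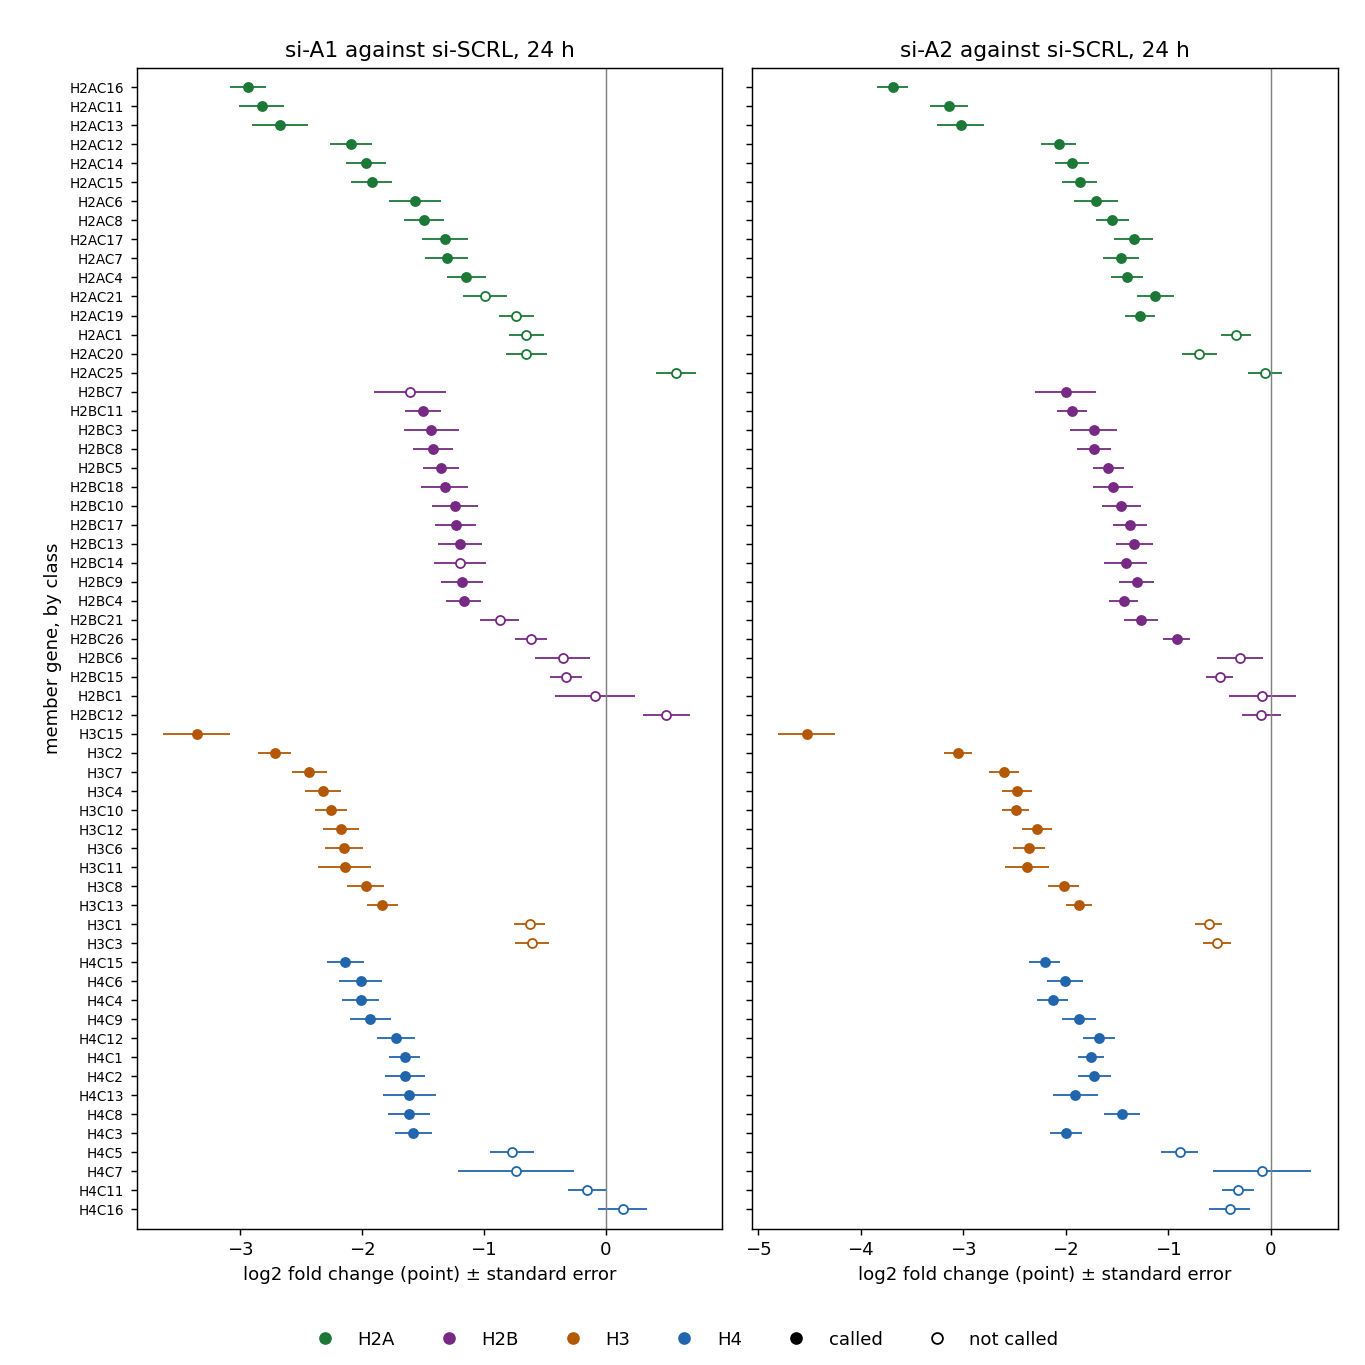
Log2 fold change of each member (points, with standard errors) against si-SCRL at 24 h, for si-A1 on the left and si-A2 on the right; colours are classes and filled points passed the threshold, and each panel has its own x axis. In the H3 class 10 of 12 points are filled in each panel, and the open points include H2AC25, H2BC12, H2BC15, H3C3, H4C11 and H4C16.

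H2A pairs with H2B to form the outer dimers of the nucleosome. H2AC16 (HIST1H2AL, chr6:27865317-27865798) had the largest decrease of the H2A class. Its log2 intensity was 8.34, 8.48, 8.50 and 8.59 on the si-SCRL arrays of replicates 1 to 4, 5.41, 5.20, 5.68 and 5.87 after si-A1, and 4.36, 4.89, 4.91 and 4.99 after si-A2. The 3 groups did not overlap, and each si-A2 array was lower than each si-A1 array. The fall was 7.66-fold after si-A1 (log2 -2.94 ± 0.15 SE, limma adjusted p = 1.18e-05) and 12.9-fold after si-A2 (-3.69 ± 0.15, adjusted p = 3.26e-06), and the difference between the siRNAs did not pass (-0.75, limma adjusted p = 0.041). On 1 of the 4 si-A2 arrays the probe was not well above background, and with normexp background correction the values were smaller, -1.89 and -2.15, and still called.

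H2AC17 (HIST1H2AM, chr6:27892699-27893185), whose probe was the brightest of the H2A class on the si-SCRL arrays, fell less. It read 14.28, 14.51, 14.53 and 14.05 in si-SCRL, 13.23, 12.88, 13.25 and 12.75 in si-A1 and 13.46, 12.87, 12.80 and 12.90 in si-A2. Both knockdown groups lay below all control arrays and overlapped with each other. The fall was 2.49-fold (-1.32 ± 0.19, limma adjusted p = 0.00407) and 2.53-fold (-1.34 ± 0.19, adjusted p = 0.0036). Each call was lost in 6 of the 12 fits that left out 1 array.

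The H2A gene of HIST3 was not called at 24 h. H2AC25 (HIST3H2A, chr1:228457364-228457873) read 5.53, 5.37, 5.52 and 4.90 in si-SCRL, 6.07, 5.73, 5.86 and 5.98 in si-A1, and 5.23, 5.53, 5.21 and 5.12 in si-A2. The si-A1 arrays all lay above the si-SCRL arrays, while the si-A2 arrays overlapped with them. The differences were 0.58 and -0.06 (limma adjusted p = 0.135 and 0.924).

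In the H2B class, 8 of 18 genes were not called after si-A1 and 4 after si-A2. H2BC7 (HIST1H2BF, chr6:26199516-26199988) had the lowest fold change of the class after both siRNAs but varied between replicates. It read 11.75, 12.24, 12.41 and 11.96 in si-SCRL, 10.98, 10.32, 10.59 and 10.04 in si-A1, and 9.70, 9.56, 10.19 and 10.91 in si-A2. All knockdown arrays were below all controls, yet only the si-A2 difference passed (-2.0 ± 0.30, limma adjusted p = 0.00503), while the si-A1 difference was -1.61 ± 0.30 (adjusted p = 0.0181). Leaving out 1 array ended the si-A2 call in 9 of 12 fits and gave a si-A1 call in 1, and 2 of 11 other settings did each of these. H2BC13 (HIST1H2BL, chr6:27807479-27807929), the brightest H2B probe in si-SCRL at 15.56, 15.96, 15.96 and 15.54, was at 14.90, 14.42, 14.57 and 14.35 after si-A1 and at 14.38, 14.32, 14.29 and 14.71 after si-A2. It fell with both siRNAs (-1.19 ± 0.18, limma adjusted p = 0.00498, and -1.33 ± 0.18, adjusted p = 0.00249), with the calls lost in 8 and 4 of the 12 fits without 1 array and each in 3 of 11 other settings. H2BC1 (HIST1H2BA, chr6:25726777-25727345), a testis histone gene, was near background, with 2 si-SCRL, 1 si-A1 and 1 si-A2 array well above it at 24 h, and its groups overlapped throughout (-0.09 and -0.08, neither called).

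H3 and H4 form the central tetramer. The largest change of any member at 24 h was that of H3C15 (HIST2H3A, chr1:149852608-149853125). Its log2 intensities were 13.38, 13.12, 13.52 and 12.21 in si-SCRL, 9.96, 9.85, 9.48 and 9.52 in si-A1, and 9.11, 8.52, 8.64 and 7.86 in si-A2. Every knockdown array was over 2 log2 units below every control array, and all si-A2 arrays lay below all si-A1 arrays. The gene fell 10.2-fold with si-A1 (-3.36 ± 0.28, limma adjusted p = 0.000109) and 23.1-fold after si-A2 (-4.53 ± 0.28, adjusted p = 1.53e-05), and the difference between siRNAs did not pass (-1.17, 95% interval -1.78 to -0.56, adjusted p = 0.0811). H3C14, the near-identical neighbour of H3C15, had no probe of its own, so signal from it at this probe cannot be told apart. The same holds for H2AC19 with H2AC18 and for H4C15 with H4C14.

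H3C13 (HIST2H3D, chr1:149813225-149813693) had the brightest H3 probe in si-SCRL, with 14.51, 14.34, 14.56 and 14.25. It was at 12.74, 12.62, 12.54 and 12.43 after si-A1 and at 12.72, 12.44, 12.43 and 12.58 after si-A2. The controls stood apart from both knockdown groups, which overlapped, and the gene fell 3.56-fold (-1.83 ± 0.13, limma adjusted p = 5.38e-05) and 3.66-fold (-1.87 ± 0.13, adjusted p = 3.53e-05). H3C3 (HIST1H3C, chr6:26045384-26045869) had the smallest decrease of the class, from 11.92, 12.06, 12.17 and 11.77 to 11.49, 11.41, 11.45 and 11.17 in si-A1 and 11.64, 11.33, 11.35 and 11.50 in si-A2. Its groups did not overlap with the controls either, but the differences of -0.60 and -0.53 did not pass (limma adjusted p = 0.0593 and 0.118). The H3C3 stretch printed above holds CCAAT like that of H3C15, and no TATAAA.

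Most H4 genes encode 1 identical protein. Among them H4C15 (HIST2H4B, chr1:149844488-149861240) fell furthest. It read 13.50, 13.52, 13.58 and 13.05 in si-SCRL, 11.51, 11.21, 11.28 and 11.10 in si-A1 and 11.53, 11.24, 11.11 and 10.95 in si-A2. The knockdown groups overlapped and lay well below the controls, with falls of 4.40-fold (-2.14 ± 0.15, limma adjusted p = 5.38e-05) and 4.61-fold (-2.20 ± 0.15, adjusted p = 3.51e-05). H4C12 (HIST1H4K, chr6:27831174-27831560), with the brightest H4 probe in si-SCRL, went from 13.51, 13.53, 13.65 and 13.03 to 11.83, 11.71, 11.60 and 11.69 after si-A1 and 12.13, 11.72, 11.56 and 11.61 after si-A2, and was called lower in both (-1.72 and -1.67, limma adjusted p = 0.000224 and 0.000236).

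A few H4 genes were not called. H4C11 (HIST1H4J, chr6:27824092-27824480) read 11.56, 11.21, 11.24 and 11.34 in si-SCRL, 10.93, 11.23, 11.10 and 11.47 in si-A1, and 10.85, 11.18, 11.04 and 10.99 in si-A2. The si-A1 arrays overlapped with the controls and the si-A2 arrays lay just below them, with differences of -0.15 (95% interval -0.49 to 0.19) and -0.32 (-0.66 to 0.02) that did not pass. H4C16 (HIST4H4, chr12:14770720-14771131), the lone gene on chromosome 12, read 5.78, 5.53, 5.45 and 5.51 in si-SCRL, 5.55, 5.56, 5.72 and 6.01 in si-A1, and 4.90, 5.66, 5.26 and 4.85 in si-A2, all overlapping (0.14 and -0.40, neither called). H4C7 (HIST1H4G, chr6:26246611-26246996) was dim, not well above background on 1 array of each knockdown group, and spread from 3.57 to 5.91 among the si-A2 arrays (-0.73 and -0.09, neither called). The letters GGTCC stood in the promoter of H4C11 as in that of H4C15.

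By chromosome cluster, HIST1 and HIST2 held all but 1 of the calls at 24 h. In HIST1, 37 of 49 genes fell after si-A1 (median -1.56) and 39 after si-A2 (-1.72). In HIST2, 4 of 8 fell after si-A1 (-1.16) and 7 of 8 after si-A2 (-1.41). The remaining call was H2BC26 of HIST3 after si-A2.

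The genes of HIST2 differed among themselves. H2BC18 (HIST2H2BF, chr1:149782689-149812370) read 14.43, 14.93, 14.91 and 14.31 in si-SCRL, 13.59, 13.24, 13.46 and 13.01 in si-A1 and 13.23, 12.98, 12.93 and 13.29 in si-A2, and fell with both siRNAs (-1.32 and -1.54, limma adjusted p = 0.00469 and 0.00172), although the si-A1 call was lost in 6 of 12 fits without 1 array. H2AC19 (HIST2H2AA4, chr1:149851061-149851594) read 11.20, 10.92, 10.94 and 10.57 in si-SCRL, 10.28, 10.14, 10.27 and 10.01 in si-A1 and 9.75, 9.70, 9.69 and 9.38 in si-A2. Its 3 groups formed separate steps, and the fall passed for si-A2 (-1.28 ± 0.14, limma adjusted p = 0.000798) but not for si-A1 (-0.73 ± 0.14, adjusted p = 0.0257), with a difference between siRNAs of -0.54 that was not called (adjusted p = 0.125). H2AC21 (HIST2H2AB, chr1:149887469-149887965) was at 14.21, 14.65, 14.39 and 14.08 in si-SCRL, 13.52, 13.22, 13.55 and 13.09 in si-A1 and 13.55, 12.99, 13.13 and 13.17 in si-A2, with a fall that passed for si-A2 (-1.13, limma adjusted p = 0.00792) and a value of -0.99 (adjusted p = 0.0159) for si-A1. The si-A2 call of H2AC21 was lost in 12 of 12 fits without 1 array and in 4 of 11 other settings. H2AC20 (HIST2H2AC, chr1:149886918-149887411) was at 12.96, 13.26, 13.47 and 12.88 in si-SCRL, 12.65, 12.41, 12.57 and 12.33 in si-A1 and 12.67, 12.28, 12.28 and 12.53 in si-A2. It was below the controls on every knockdown array, by -0.65 and -0.70 on average, and was not called.

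In HIST3, H2BC26 (HIST3H2BB, chr1:228458103-228458558) read 9.11, 8.79, 8.96 and 8.63 in si-SCRL, 8.29, 8.27, 8.28 and 8.23 in si-A1 and 8.16, 7.96, 7.86 and 7.84 in si-A2. All knockdown arrays were below the controls, and the fall passed for si-A2 (-0.92 ± 0.13, limma adjusted p = 0.00376) and missed the threshold for si-A1 (-0.61 ± 0.13, adjusted p = 0.0406). The si-A2 call was lost in 4 of 12 fits without 1 array and in 3 of 11 other settings. Its head-to-head neighbour H2AC25, described above, had higher values after si-A1.

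That pair was 1 of 11, found among genes with a listed promoter, in which an H2A and an H2B gene start 193 to 247 bases apart on opposite strands. H2AC12, which lies beside H2BC12, had no listed promoter and so entered no pair. After si-A1 at 24 h both genes were called lower in 5 pairs and neither in 3, and after si-A2 both were called in 7 pairs and neither in 1. The H2A log2 fold change was below that of its H2B partner in 8 of 11 pairs for si-A1 and in 6 of 11 for si-A2, with a median difference of -0.40 and -0.26. H2AC11 and H2BC11, which share the stretch printed first, both fell, by 2.82 and 1.5 on the log2 scale after si-A1. In the pair H2AC15 and H2BC15, by contrast, the fold changes were -1.92 and -0.32 after si-A1 and -1.87 and -0.50 after si-A2.

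The single arrays of this pair show the split. H2AC15 read 13.85, 13.96, 14.30 and 13.55 in si-SCRL, 12.09, 11.95, 12.07 and 11.87 in si-A1, and 12.28, 11.99, 11.95 and 11.98 in si-A2, so that no knockdown array came near a control. H2BC15 read 10.73, 10.52, 10.15 and 10.46 in si-SCRL, 10.05, 10.27, 10.05 and 10.18 in si-A1, and 10.06, 10.12, 9.95 and 9.72 in si-A2, with overlap between si-A1 and the controls. H2AC15 was called lower with both siRNAs (limma adjusted p = 0.000158 and 0.00016) and H2BC15 with neither (adjusted p = 0.354 and 0.128). The stretch between them holds CCAAT but neither ATTTGCAT nor TATAAA, and the same was true of the stretch between H2AC25 and H2BC26. TATAAA was also absent before H2AC16 and H2BC7, which had the largest decreases of H2A and H2B at 24 h. Fold changes were not compared by these letters, and the bearing of the letters on them was not tested.

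**Figure D3:**
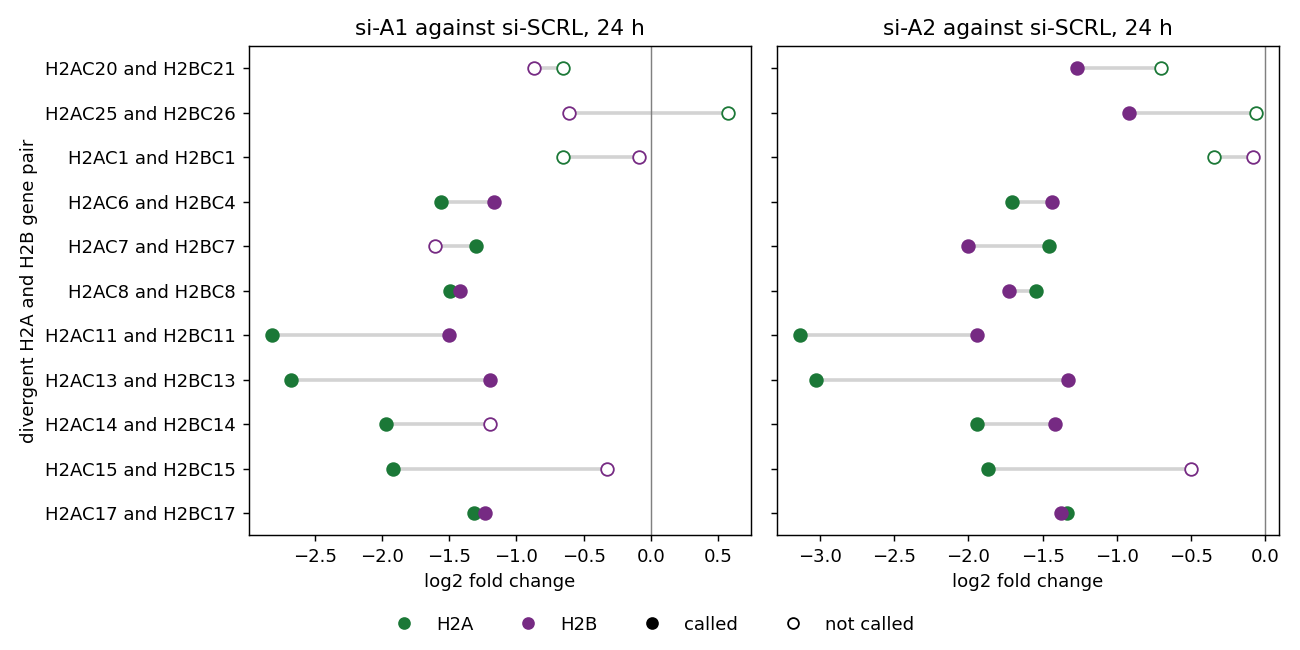
Log2 fold changes at 24 h (x axis) of the H2A gene (green) and the H2B gene (purple) of each head-to-head pair counted, joined by a line. The left panel is si-A1 and the right panel si-A2, and filled points passed the threshold. The longest lines belong to H2AC15 with H2BC15, H2AC13 with H2BC13, H2AC11 with H2BC11 and H2AC25 with H2BC26.

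For 10 members the 24 h array carried a second probe with the same accession, and the brighter was used. The probes of H2BC12 (HIST1H2BK, chr6:27138293-27146858) disagreed in direction. The brighter one read 12.64, 13.19, 12.76 and 13.25 in si-SCRL, 13.58, 13.38, 13.42 and 13.45 in si-A1 and 12.38, 13.04, 13.01 and 13.03 in si-A2, which placed si-A1 above all controls (0.50) and si-A2 among them (-0.09), with neither called. The other probe of the gene fell with both siRNAs (-1.31 and -1.65, limma adjusted p over all probes 0.00329 and 0.000765). At 48 h that second probe was the brighter and was the one used. H2BC21 (HIST2H2BE, chr1:149884459-149886682) was the other such gene.

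At the probe used, H2BC21 read 9.30, 9.50, 9.55 and 8.80 in si-SCRL, 8.54, 8.39, 8.25 and 8.49 in si-A1 and 8.14, 8.08, 7.99 and 7.88 in si-A2. These values put every knockdown array below the controls, with a fall called for si-A2 (-1.27, limma adjusted p = 0.00199) and a difference of -0.87 for si-A1 (adjusted p = 0.0198). The call was lost in 3 of 12 fits without 1 array and in 3 of 11 other settings. Its second probe showed 0.26 and -0.49, neither called. Probes also differed in size without a change of sign: H4C4 had -2.01 at the brighter and -0.33 at the dimmer probe after si-A1, H4C12 -1.72 and -0.70, and H2AC6 -1.56 and -0.66, while the dimmer probe was the lower for H4C1 (-1.65 and -2.57) and H2AC17 (-1.32 and -1.84). The probe sequences are not in the files used, so which transcript end each probe reads was not tested. The study's own filter on probes that map to more than 1 place was not repeated.

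**Figure D4:**
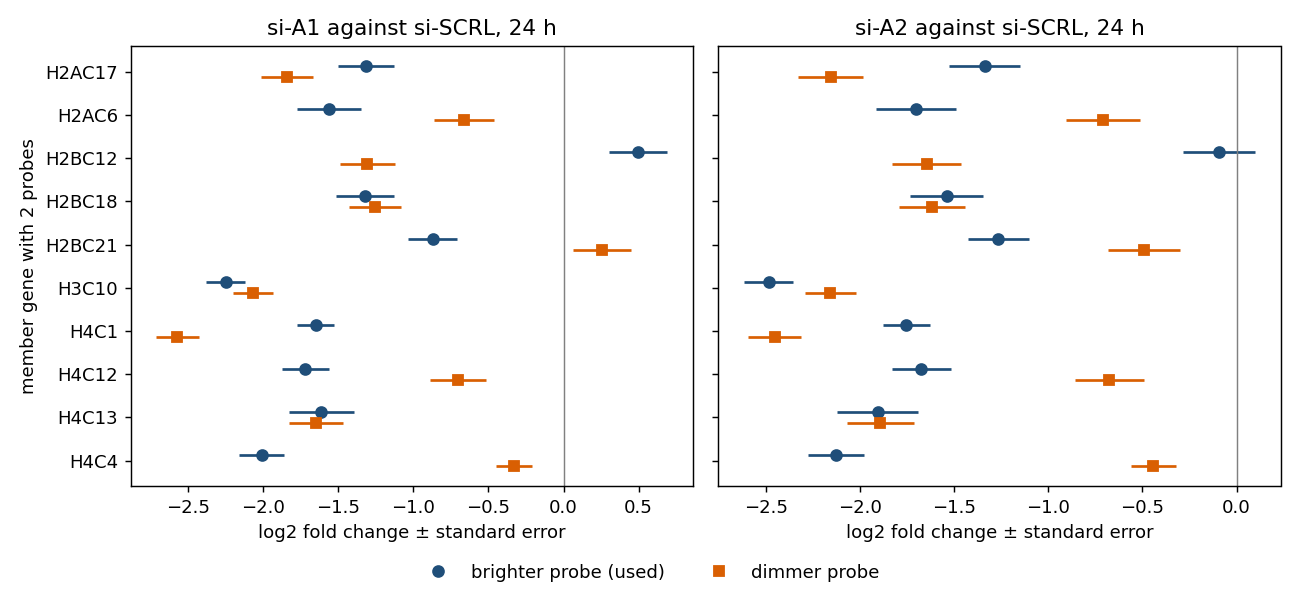
Log2 fold change with standard error at 24 h (x axis) for the brighter (circles) and the dimmer probe (squares) of each member that has 2, for si-A1 on the left and si-A2 on the right. The probes of H2BC12 and H2BC21 fall on opposite sides of 0 after si-A1, and those of H2BC18, H3C10 and H4C13 lie close together.

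The siRNAs were also set against each other. At 24 h, 0 of 60 members were called different between si-A2 and si-A1 by limma, where 0.308% of all genes were called. An unadjusted p below 0.05 was reached by 11 members, a level not counted over all genes. The median difference over the members was -0.15.

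At 48 h most members fell after si-A1, and few were called after si-A2, whose median was smaller in size. After si-A1, 52 of 59 members were called lower, against 3.66% of all genes, and 1 was called higher, against 2.16%. The member median was -2.33, beside 0.06 over all genes. All 4 si-A1 arrays lay below all si-SCRL arrays for 54 members, against 8.18% of all genes. With the dim si-A2 array put back, 0 members and 22 of all genes were called lower after si-A1 by limma, while the member median was -2.29.

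After si-A2 at 48 h, 9 of 59 members were called lower and 0 higher, against 0.38% of all genes, with a median of -1.33 beside 0.01 over all genes. The 9 were H2AC6, H2AC11, H2AC19, H2BC3, H2BC5, H2BC7, H2BC12, H2BC21 and H3C3. H2BC12 and H2BC21 were counted on 1 of their 2 probes, and the other probe gave -0.59 and 0.65 after si-A2, and -0.56 and 0.74 after si-A1, none of them called. H2AC6 also had 2 probes, and its other probe gave -0.96 after si-A2, not called, and -1.77 after si-A1, called. Same-numbered arrays deviated together at this time, and so did other arrays of the same slide. With the replicate number as a block in place of slide, 0 members were called, and 0 of all 37670 genes tested. Leaving out any 1 of the 11 arrays gave 0 or 1 members, with 1 to 64 of all genes called lower. The other settings tried gave 0 to 45 members, the 45 at an adjusted p below 0.05, where 718 of all genes were called lower. An unadjusted p below 0.05 was reached by 55 members, a level not counted over all genes. All 3 si-A2 arrays lay below all si-SCRL arrays for 45 members, against 6.79% of all genes. The si-A2 arrays were uneven, with a member median of -1.0 on replicate 1, -2.02 on replicate 3 and -1.22 on replicate 4. The si-SCRL arrays ranged from -0.38 to 0.24 and the si-A1 arrays from -2.61 to -2.15. Replicate 3 was the lowest array in those groups too, at -0.38 in si-SCRL and -2.61 in si-A1, so its low si-A2 value was not particular to si-A2.

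By class, 15 of 16 H2A genes fell after si-A1 at 48 h and H2AC25 rose, and 13 of 17 H2B, 12 of 12 H3 and 12 of 14 H4 genes fell. The class medians were -2.08, -2.22, -2.85 and -2.45. After si-A2 the calls were 3 H2A, 5 H2B, 1 H3 and 0 H4 genes, while the medians, -1.25, -1.40, -1.46 and -1.32, lay closer together. In HIST1 the si-A1 median was -2.40 and the si-A2 median -1.40, and in HIST2 it was -1.76 and -1.21.

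**Figure D5:**
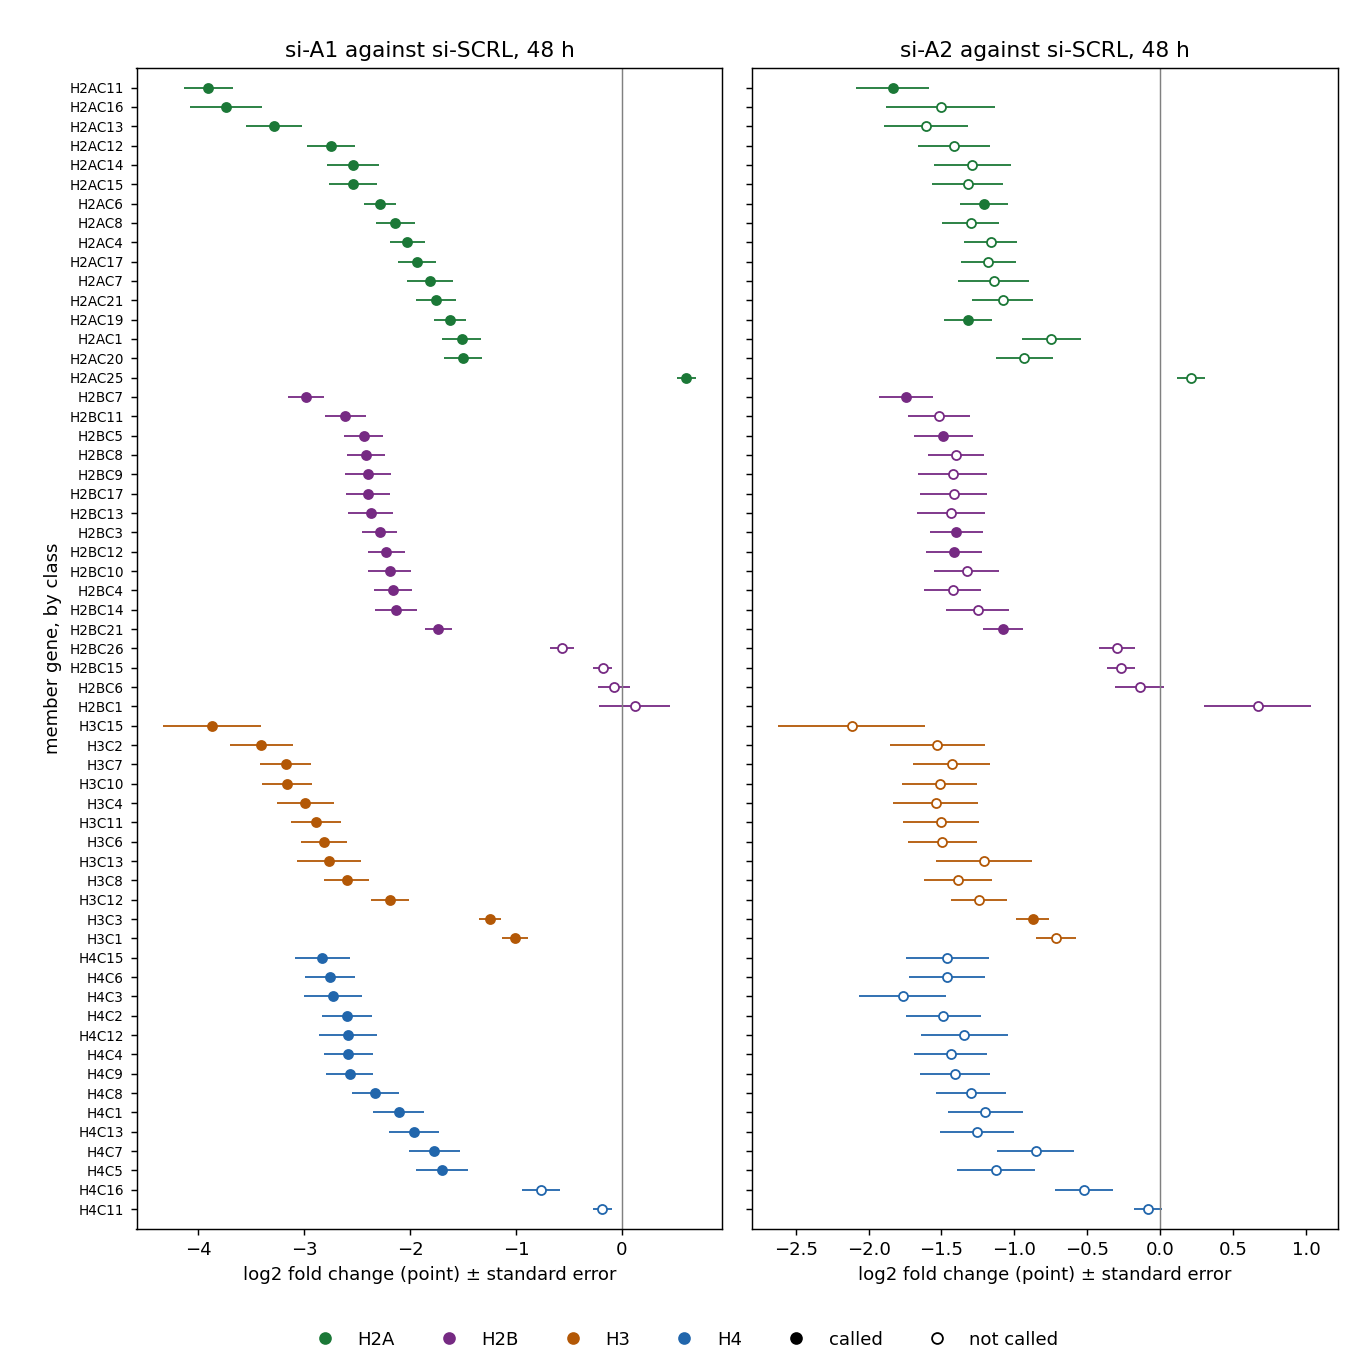
Log2 fold change of each member (points, with standard errors) against si-SCRL at 48 h, for si-A1 on the left and si-A2 on the right, with colours and fills as at 24 h and an x axis for each panel. After si-A1 52 points are filled on the left of 0 and H2AC25 on the right, and after si-A2 9 are filled, while H2BC15, H2BC6, H2BC1 and H4C11 lie near 0 after si-A1.

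H2AC11 (HIST1H2AG, chr6:27133043-27133535) had the largest decrease after si-A1 at 48 h of any member and the lowest adjusted p between the siRNAs. It read 12.33, 12.29, 11.96 and 12.18 in si-SCRL, 8.19, 8.61, 7.79 and 8.56 in si-A1, and 10.67, 9.66 and 10.57 on the si-A2 arrays of replicates 1, 3 and 4. The groups formed 3 steps with si-A2 in the middle. The fall was 15.0-fold with si-A1 (-3.90 ± 0.23, limma adjusted p = 4.94e-05) and 3.57-fold after si-A2 (-1.84 ± 0.25, adjusted p = 0.00992), and si-A2 was higher than si-A1 by 2.07 (95% interval 1.5 to 2.63, adjusted p = 0.00353). At 24 h the same comparison gave -0.32 (adjusted p = 0.636).

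In all, 5 members were called higher in si-A2 than in si-A1 at 48 h, against 0.926% of all genes, and 0 lower. Besides H2AC11 they were H3C7 (1.74, limma adjusted p = 0.00829), H3C10 (1.65, adjusted p = 0.00981), H2BC7 (1.24, adjusted p = 0.00829) and H2AC6 (1.08, adjusted p = 0.00837). The dimmer probes of H3C10 and H2AC6 gave 1.45 and 0.81, neither called (limma adjusted p over all probes 0.011 and 0.027). The median difference over the members was 0.95. Without si-A2 replicate 3 the count was 16, and without any other single array it was 0 or 1.

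H3C7 (HIST1H3F, chr6:26250142-26250635) read 13.26, 13.31, 12.23 and 12.71 in si-SCRL, 9.80, 10.03, 9.31 and 9.68 in si-A1, and 11.93, 10.48 and 11.60 in si-A2. H3C10 (HIST1H3H, chr6:27810051-27810536) read 12.98, 13.12, 12.09 and 12.53 in si-SCRL, 9.56, 9.74, 9.19 and 9.59 in si-A1, and 11.64, 10.26 and 11.31 in si-A2. In both genes replicate 3 was the lowest array in si-SCRL, in si-A1 and in si-A2. The si-A2 array of replicate 3 still lay above all si-A1 arrays. After si-A1 they fell 9.02-fold and 8.93-fold (limma adjusted p = 8.89e-05 and 8.27e-05), while the si-A2 values of -1.43 and -1.51 did not pass (adjusted p = 0.0266 and 0.0213).

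H2BC7 read 11.14, 11.25, 10.88 and 10.82 in si-SCRL, 8.13, 8.25, 7.70 and 8.09 in si-A1, and 9.84, 8.61 and 9.15 in si-A2 at 48 h. The groups were separate, and the gene fell with both siRNAs (-2.98 ± 0.17, limma adjusted p = 4.94e-05, and -1.74 ± 0.19, adjusted p = 0.0042), the si-A2 call being lost in 9 of 11 fits without 1 array. H3C15 read 12.64, 12.39, 12.27 and 13.49 in si-SCRL, 8.63, 8.75, 7.98 and 9.97 in si-A1, and 10.91, 9.87 and 11.04 in si-A2, with si-A1 replicate 4 reaching above the lowest si-A2 array. It fell 14.6-fold with si-A1 (-3.87 ± 0.46, limma adjusted p = 0.000927), and the si-A2 value was -2.11 ± 0.50 (adjusted p = 0.0677).

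H2AC25 was the only member called higher in any comparison with si-SCRL. It read 5.20, 5.34, 5.42 and 5.43 in si-SCRL, 5.98, 6.02, 5.90 and 5.92 in si-A1, and 5.65, 5.45 and 5.57 in si-A2 at 48 h. Both knockdown groups lay above all controls. The rise after si-A1 was 1.53-fold (0.61 ± 0.09, limma adjusted p = 0.00271), and the si-A2 value was 0.21 (adjusted p = 0.305). The si-A1 call was lost in 3 of 11 fits without 1 array and in 3 of 11 other settings, the replicate block among them.

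H4C11 was again not called at 48 h, reading 13.72, 13.77, 13.53 and 13.74 in si-SCRL, 13.46, 13.41, 13.54 and 13.61 in si-A1, and 13.57, 13.68 and 13.57 in si-A2. The groups overlapped, with differences of -0.18 (95% interval -0.39 to 0.02) and -0.08 (-0.31 to 0.14). H2BC15 likewise read 11.50, 11.59, 11.01 and 11.28 in si-SCRL, 11.48, 11.30, 10.95 and 10.94 in si-A1 and 11.36, 10.85 and 10.80 in si-A2, and its partner H2AC15 fell 5.80-fold after si-A1 (limma adjusted p = 0.000177). Over the 11 pairs at 48 h both genes were called in 8 pairs after si-A1 and in 0 after si-A2, and the median difference between H2A and H2B was -0.12 and 0.10. H4C16, uncalled at 24 h, was at 8.23, 8.06, 7.38 and 8.05 in si-SCRL, 6.99, 7.23, 7.09 and 7.35 in si-A1 and 7.66, 7.11 and 7.34 in si-A2. Its si-A1 arrays were all below the controls, and the differences of -0.76 and -0.52 were not called (limma adjusted p = 0.0235 and 0.224).

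The change of an effect between the times was fitted as an interaction term, on the probes that both array designs share. Time and array design are the same split here and cannot be told apart. Of 59 members, 0 were called for si-A1 and 0 for si-A2 by limma. Few genes of any kind were called: of 30230 tested, 35 with a negative and 19 with a positive change for si-A1. For si-A2 these were 1 and 10. An unadjusted p below 0.05 was reached by 23 and 28 members, a level not counted over all genes. The member median of the estimates was -0.44 for si-A1 (51 of 59 negative) and 0.60 for si-A2 (7 of 59 negative). Over all genes the median was -0.01 for each siRNA, and negative estimates were not counted. Members share arrays and sequence, so these signs are not independent of each other. The estimate for H3C2 was 1.96 for si-A2 (95% interval 1.31 to 2.61, adjusted p = 0.0118), and those for H2AC16 and H3C15 were 2.20 and 2.89 (adjusted p = 0.0395 and 0.0582). Without si-A2 replicate 3 of 48 h, 7 members were called for si-A2.

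Genes around the core histones were counted from fixed lists. Of 15 S phase genes, which encode replication proteins, cyclins and nucleotide synthesis enzymes, 14 fell after si-A1 and 13 after si-A2 at 24 h (medians -1.47 and -1.62), and 14 and 2 at 48 h (-2.02 and -0.88). RRM2, the small subunit of ribonucleotide reductase, had the largest decrease of the list after si-A1 at 24 h (-3.12), and its large-subunit partner RRM1 the smallest (-0.64, not called). At 48 h, 7 of the 15 were called higher in si-A2 than in si-A1. Their part in the values of the core histone genes was not tested.

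Of 13 regulators of histone genes and their 3′ ends, 0 fell after si-A1 and 1 after si-A2 at 24 h, and 3 and 0 at 48 h. The one at 24 h was NPAT (-1.13 ± 0.15, limma adjusted p = 0.00276), whose si-A1 value was -0.62 (adjusted p = 0.0767). SLBP fell after si-A1 at 48 h (-1.15 ± 0.10, limma adjusted p = 0.000152), and its other values, -0.68 and -0.94 at 24 h and -0.65 after si-A2 at 48 h, missed the threshold (adjusted p = 0.0586, 0.0117 and 0.0192). Of the 5 linker histone genes, which encode the H1 proteins that bind between nucleosomes, 1 fell after each siRNA at 24 h, and 4 and 1 fell at 48 h. It was H1-5 at 24 h, with -3.48 and -3.79, while H1-1 stood at -0.20 and -0.05. A last list held other histone genes, named as variants. Of the 11 tested, 2 and 1 fell at 24 h and 7 and 4 at 48 h, with medians of -0.50, -0.17, -0.78 and -0.81. In that list H2AX had the lowest value after si-A1 at 24 h (-1.88) and CENPA, the centromere histone, after si-A1 at 48 h (-3.43).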

How the data were processed

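RNA from LNCaP cells was hybridised to 24 1-colour Agilent arrays (v2 at 24 h, v3 at 48 h), 12 per time point. Per the file headers, the deposited scanner files hold Feature Extraction's background-corrected intensity (processed signal) per spot and the spot flags. The authors' deposited value table, on a log2 scale, served as an alternative only. According to the submitters' processing notes, the authors used R 3.4.3, limma 3.34.8 and hg38.

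The members and lists were chosen with earlier results of these data known. Log2 intensities of all spots were quantile-normalized per time point, and control spots and flagged spots were then left out. Probes had to exceed the mean plus 3 SDs of the negative controls on at least 3 arrays (44849 probes passed at 24 h, 45158 at 48 h). The brightest probe stood for a gene. limma 3.58.1 (R 4.3.3) was fitted to all arrays of a time point with slide as an additive term, except the dim array, with Benjamini-Hochberg adjustment over all genes. A call needed an adjusted p below 0.01 and a log2 fold change of at least 0.5 in size. Interactions were fitted on 23 arrays, normalized together over common probes after control spots and flagged spots were left out. The number of arrays limits the precision.

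Members named with values were, per class, the brightest in si-SCRL at 24 h and those with the largest and smallest decrease, with members called higher or different between siRNAs, members outside chromosome 6 and those whose probes differed in sign. Other members with values were chosen after their values were seen.

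Deviations of same-numbered arrays from their group means correlated above 0.1 in 10 of 10 pairs at 48 h (0.19 to 0.37) and in 3 of 12 at 24 h (-0.15 to 0.15). At 48 h, arrays of other numbers on the same slide correlated by 0.10 to 0.31. Tested on simulated data for si-A1, changes of 1 and 2 on the log2 scale were recovered in 22% and 70% of genes at 24 h (36595 genes) and in 42% and 76% at 48 h (37403 genes). The simulated errors were independent between arrays apart from a slide shift. They did not hold the correlation of same-numbered arrays, so recovery in the real arrays may differ. Alternatives were other scalings and background correction, filters, probe summaries, slide and replicate terms, thresholds, sample sets and leaving out each array. The authors' filter on probes that map to several places was not repeated.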

Additional observations from a re-analysis of the deposited data

Results flagged for a closer look

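Some arrays lay far from the others of their group, which chance alone gives in about 1 in 20 groups. Of 138 groups examined, of named members and of class medians, 5 held such an array. In si-A2 at 24 h, H2AC16 measured 4.36 on replicate 1 against 4.89 to 4.99 on the others, H2AC17 13.46 on replicate 1 against 12.8 to 12.9, H2BC12 12.38 on replicate 1 against 13.01 to 13.04, and H2AC19 9.38 on replicate 4 against 9.69 to 9.75. In si-SCRL at 24 h, H4C15 measured 13.05 on replicate 4 against 13.5 to 13.58.

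The effects of the siRNAs at 48 h differed for 5 members by limma's contrast of si-A2 with si-A1. The log2 difference was 2.07 for H2AC11 (adjusted p = 0.00353), 1.74 for H3C7 (adjusted p = 0.00829), 1.65 for H3C10 (adjusted p = 0.00981), 1.24 for H2BC7 (adjusted p = 0.00829) and 1.08 for H2AC6 (adjusted p = 0.00837).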

How the results depend on the processing

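The counts and medians given here are those that moved, and the cause was not tested. Fitting only the groups compared gave 27 members lower for si-A1 and 28 for si-A2 at 24 h, and an adjusted p below 0.05 gave 1 member different between siRNAs. Normexp background moved the H3 medians at 24 h to -1.98 and -2.15. Of 59 members, those called lower after si-A2 at 48 h numbered 5 with 75th percentile scaling, 42 with normexp, 1 without slide, 1 with the interquartile filter, 34 for probes well above background, 1 without a filter, 4 with the median over probes, 45 at an adjusted p below 0.05, 0 with only the groups compared and 0 with the dim array, which also gave 0 after si-A1 and class medians after si-A2 of -2.12 for H2A, -2.40 for H2B and -2.50 for H3. Members different between siRNAs at 48 h numbered 27 with normexp, 1 without slide, 3 with slide as a random block, 2 with the interquartile filter, 16 for probes well above background, 1 without a filter, 32 at an adjusted p below 0.05, 0 with only the groups compared and 0 with the dim array. Members with a changed si-A2 effect numbered 1 with normexp, 1 for probes well above background and 3 at an adjusted p below 0.05.

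With the paired fit (replicate block), 35 members passed as lower for si-A1 and 40 for si-A2 at 24 h, with 0 different between siRNAs. At 48 h it gave 52 and 0, with 7 different between siRNAs. After si-A2 at 48 h it called 0 of all 37670 genes tested, as did fitting only the groups compared. The fit with the dim array called 0 of 39269 genes after si-A2.

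Leaving out 1 array at a time moved the number lower at 24 h between 30 and 41 for si-A1 and between 38 and 46 with si-A2, and gave 50 to 53 and 0 to 1 at 48 h, 0 to 16 different between siRNAs at 48 h (16 without si-A2 replicate 3) and 0 to 7 with a changed si-A2 effect (7 without that array). The H4 median after si-A1 at 24 h ranged from -1.74 to -1.50 and the H3 median after si-A2 from -2.47 to -2.20.

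Signs turned for the members that follow. For H2BC12 and H2BC21, whose probes disagree in sign, the brightest probe could differ between fits. The -1.31 given here for H2BC12 equals the value of its dimmer probe. At 24 h the probes of H2BC21 averaged 8.58 and 8.51 in log2 intensity. H2BC1 was 0.0725 after si-A1 at 24 h with 75th percentile scaling, and with normexp at 48 h -0.0065 after si-A1 and -0.0044 after si-A2. H2BC12 was 0.0092 after si-A2 at 24 h with 75th percentile scaling, and -1.31 with the interquartile filter and -0.40 with the median over probes after si-A1. H4C7 was 0.0177 after si-A2 at 24 h with normexp and 0.11 at 48 h with the dim array, with which H2BC26 was 0.15. Leaving out 1 array gave -0.32 to 0.18 for H2BC1 after si-A1 and -0.31 to 0.10 after si-A2 at 24 h and -0.10 to 0.39 after si-A1 at 48 h, -1.02 to 0.32 for H2BC21 after si-A1 at 24 h, and after si-A2 at 24 h -0.19 to 0.038 for H2AC25, -0.19 to 0.0641 for H2BC12 and -0.45 to 0.43 for H4C7.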
